A study of Mus musculus with 14 samples.

Results

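Messenger RNA of 8 genes of the red cell membrane skeleton was followed across 14 Visium sections of mouse blood-forming organs. The genes were Slc4a1, Epb42, Epb41, Ank1, Sptb, Add2, Dmtn and Tmod1, taken by symbol from a fixed list, and they were 8 of the 19465 features in the tables of the C1qa cross and 8 of the 32589 in the tables of the purchased mice. All 8 were listed in both tables and were counted in every section. They were chosen by their known place in the skeleton and with earlier results of these sections in view, in which the spleen counts had put Dmtn among the genes most reduced in the knockout. No value set a limit, so there are no genes just inside or outside a threshold. Levels are given as CPM, the UMIs of a gene out of every 1000000 UMIs of a section, pooled over those spots on tissue that had at least 1000 detected genes. UMIs are molecules counted by their barcodes. Each gene is read through its own probes, so levels are compared between sections and not between genes.

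Wild-type C57BL/6 mice from the Jackson Laboratory gave single sections of fetal liver at E14.5 and at E13.5, P8 leg bone with its marrow, 89-week marrow, adult spleen (aged 2 or 3 months by different parts of the study's text, and with no age in weeks or months in the labels), and marrow of a 6-month mouse whose bone was decalcified with 0.5 M EDTA for 5 days. Mating of C1qa heterozygotes, also from Jackson, gave 2 wild-type and 2 C1qa knockout E14.5 fetal livers, numbered 2 and 4. It also gave 2 wild-type and 2 C1qa knockout spleens, numbered 1 and 2. The labels give 3 months for these spleens, while a figure legend of the study gives 2 months. The knockout is inherited and not limited to one cell type, and wild-type and knockout mice came from the same kind of mating. The study names the fetal liver numbers as litters, with wild-type 2 and knockout 2 from one dam and wild-type 4 and knockout 4 from the other. The labels do not say whether the other sections of a group came from separate litters, and p-values measure the spread between these sections.

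The red cell membrane is held in shape by a net of spectrin tetramers under the lipid bilayer. Beta spectrin (Sptb) is one of the chains that form its strands. The net is tied to the membrane at 2 kinds of complex. In the ankyrin complex, ankyrin-1 (Ank1) links beta spectrin to band 3 (Slc4a1), the anion exchanger, and protein 4.2 (Epb42) strengthens the link. In the junctional complex, short actin filaments are capped by tropomodulin-1 (Tmod1) and bound by beta adducin (Add2), dematin (Dmtn) and protein 4.1R (Epb41), which promotes spectrin binding to actin. Inherited loss of several of these proteins causes spherocytosis or elliptocytosis. Erythroblasts build the net while they mature and lose their nucleus, chiefly in fetal liver before birth and in bone marrow afterwards, while the mouse spleen keeps a smaller erythroid compartment in its red pulp. Epb41, Ank1 and Tmod1 are also used outside the erythroid lineage, Tmod1 and a muscle form of Ank1 in striated muscle.

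The members are spread over 7 chromosomes of the mouse genome (RefSeq annotation of GRCm38.p6). Slc4a1 lies at chr11:102348820-102365281, Epb42 at chr2:121017891-121036877, Ank1 at chr8:22974836-23150501 and Sptb at chr12:76580488-76710547. Epb41 and Tmod1 lie on the same chromosome, at chr4:131923413-132075346 and chr4:46038940-46116032. Add2 lies at chr6:86028681-86124409 and Dmtn at chr14:70602184-70636048. Because the levels of most members moved together across these sections, the bases upstream of 3 of the genes are shown with 2 short motifs known from erythroid promoters. RefSeq promoter windows of 300 bases, from 250 before to 50 after a transcription start, were held for 5 of the 8 members in 7 windows. Windows of Slc4a1, Ank1 and Dmtn were not used here. The motifs were AGATAA, bound by GATA factors, and CACCC, bound by KLF factors, each searched on both strands, and their matches did not overlap. The 250 bases before the start follow, 5′ to 3′ on the strand of the gene, for Epb42 (chr2:121036878-121037127, minus strand), Sptb (chr12:76710548-76710797, minus strand) and Add2 (chr6:86028431-86028680, plus strand), with the matched motif in capitals.
Epb42: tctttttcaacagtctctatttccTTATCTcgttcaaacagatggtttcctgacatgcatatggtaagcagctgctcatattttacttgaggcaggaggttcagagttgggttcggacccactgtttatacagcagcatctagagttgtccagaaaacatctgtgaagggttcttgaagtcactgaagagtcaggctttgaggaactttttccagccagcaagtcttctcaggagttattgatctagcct
Sptb: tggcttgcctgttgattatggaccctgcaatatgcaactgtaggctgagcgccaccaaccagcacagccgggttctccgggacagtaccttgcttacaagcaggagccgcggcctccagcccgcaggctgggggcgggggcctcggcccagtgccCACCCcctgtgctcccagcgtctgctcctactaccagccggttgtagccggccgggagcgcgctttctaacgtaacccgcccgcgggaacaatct
Add2: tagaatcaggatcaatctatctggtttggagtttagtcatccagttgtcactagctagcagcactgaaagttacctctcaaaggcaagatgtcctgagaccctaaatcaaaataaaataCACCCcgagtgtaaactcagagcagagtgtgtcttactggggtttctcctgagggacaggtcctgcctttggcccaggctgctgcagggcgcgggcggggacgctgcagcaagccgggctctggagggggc

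The capitals in Epb42 mark TTATCT, the reverse complement of AGATAA, which began 226 bases before the start. In Sptb and Add2 the capitals mark CACCC, at 95 and 131 bases before the start. Tmod1 held CACCC at 87 bases before and 7 bases after the start and its reverse complement GGGTG at 141 bases before, and the 3 windows of Epb41 held neither motif. AGATAA in either direction was found in 1 of the 7 member windows and in 11.18% of all 32851 windows, and CACCC in 3 of 7 and in 57.52%. The 7 windows are too few to set these shares apart, and a match is a run of letters and not a binding site.

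Between 491 and 2320 spots were kept per section, and their UMIs ranged from 4225805 (wild-type spleen 2) to 56182915 (purchased E14.5 liver). The exception was the EDTA-decalcified marrow, where 15 of 814 spots and 37167 UMIs remained, and which entered no comparison. C1qa held 1 or 2 UMIs in each of the 4 knockout sections and 1023 to 4343 in the 4 wild-type cross sections, as their labels state. Several sections held other tissue. In the P8 section, markers of bone, cartilage and skeletal muscle summed to 62248, 32733 and 8106 CPM, and 0 of its spots were without other tissue. Its levels, called P8 marrow here, are pooled over all of these tissues. Hepatocyte-rich spots were 94.4% and 96.6% of spots in wild-type and knockout fetal liver 2 but 29.7% in wild-type fetal liver 4 and 62.1% in knockout fetal liver 4. Summed pancreas markers reached 3264 and 21931 CPM in knockout spleens 1 and 2, against 42.5 and 749 in wild-type spleens 1 and 2. All 12 genes of an erythroid list that holds no member (Klf1, Gata1, Epor, Alas2 and others) were detected in the 13 other sections, from 514 CPM summed in knockout spleen 1 to 9279 in knockout fetal liver 2. In such sections fewer erythroid cells and less RNA per cell cannot be told apart.

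The members were higher in the purchased fetal livers and in cross fetal livers 2 than in marrow. In litter 4 some members fell to the marrow range or below it. Sptb, for example, measured 106 and 148 CPM in wild-type and knockout fetal liver 4, against 169.5 and 155 in P8 and 89-week marrow. Apart from Epb41, levels were lowest in the purchased spleen and the knockout spleens. Slc4a1 measured 700.3 CPM in the E14.5 liver of the purchased mice and 671 at E13.5. In the cross, its level was 1240.3 CPM in wild-type liver 2 and 368 in wild-type liver 4, and 1419 in knockout liver 2 and 412 in knockout liver 4. In marrow it was 281 CPM at P8 and 247 at 89 weeks. Both fetal livers of litter 4 thus lay nearer to marrow than to the livers of litter 2. In spleen, Slc4a1 measured 559 and 253 CPM in wild-type sections 1 and 2, 31.0 and 44.1 CPM in knockout sections 1 and 2, and 15.6 CPM in the purchased section (239 UMIs, 95% exact Poisson interval 13.7 to 17.7, which covers counting error alone). The wild-type cross spleens overlapped the marrow range, and the other 3 spleens fell below every other section.

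Ank1 and Epb42, the partners of band 3 in the ankyrin complex, had a like order of tissues, although Epb42 in wild-type fetal liver 4 lay below both marrows. Ank1 measured 556 and 463 CPM in the purchased E14.5 and E13.5 fetal livers, 245 to 626 in the cross fetal livers, 226 and 209 in P8 and 89-week marrow, 126 and 63.4 for wild-type spleens 1 and 2, 16.1 and 17.8 for the knockout, and 25.9 for the purchased spleen. Epb42 measured 191 and 189 CPM in the purchased E14.5 and E13.5 livers, 61.7 to 161 in the cross livers, 77.5 and 76.2 in marrow, 52.5 and 23.7 for the wild-type spleens, 6.89 and 9.59 for the knockout, and 7.85 for the purchased spleen. For Ank1 the knockout spleens lay below the purchased spleen, while for Epb42 they lay on both sides of it. The pooled SD between replicates of the cross was 0.56 on the log2 scale for each of these 2 genes, so the paired values within marrow and within the purchased livers do not differ beyond that spread.

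Sptb, the beta chain of the spectrin net, measured 391 and 408 CPM in the purchased E14.5 and E13.5 livers, 106 to 341 in the cross livers and 169.5 and 155 in P8 and 89-week marrow. In spleen it was 62.1 and 41.9 CPM in the wild type, 10.0 and 11.4 in the knockout and 11.6 in the purchased section, so that the last 3 were close together and below all others.

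Of the genes of the junctional complex, Add2 measured 376 and 367 CPM in the purchased E14.5 and E13.5 livers, 158 to 326 in the cross livers, 124 and 132 in marrow, 82.8 and 48.3 for the wild-type spleens, 11.3 and 11.01 for the knockout and 19.4 for the purchased spleen. Dmtn measured 355 and 287 CPM in the purchased livers, 121 to 467 in the cross livers, 111 at P8 and 204 at 89 weeks, 177 and 85.0 for the wild-type spleens, 13.0 and 12.4 for the knockout and 12.1 for the purchased spleen. Tmod1 measured 182 and 137 CPM in the purchased livers, 72.5 to 175 in the cross livers, 88.8 and 45.3 in P8 and 89-week marrow, 33.7 and 17.98 for the wild-type spleens, 4.25 and 6.08 for the knockout and 4.90 for the purchased spleen. The 2 knockout sections agree closely for Add2 and Dmtn, and wild-type spleen 1 is above wild-type spleen 2 for all 3.

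Epb41 did not share this order. It measured 678 and 549 CPM in the purchased E14.5 and E13.5 livers, 312 and 165 in wild-type livers 2 and 4, 333 and 206 in knockout livers 2 and 4, and 222 and 246 in P8 and 89-week marrow. In spleen it was 305 and 88.5 CPM in the wild type, 103 and 152 in the knockout and 203 in the purchased section (3104 UMIs, interval 196 to 210). The purchased spleen, among the 3 lowest sections for the other 7 members, thus lay between the 2 wild-type cross spleens for Epb41 and close to marrow. Across 13 sections, without the EDTA section, log2 CPM of the 21 pairs of the other 7 members correlated at Pearson r of 0.907 to 0.995, whereas Epb41 correlated with them at 0.597 (Slc4a1) to 0.767 (Epb42). These points share tissues and erythroid content, and the coefficients are descriptions.

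**Figure D1:**
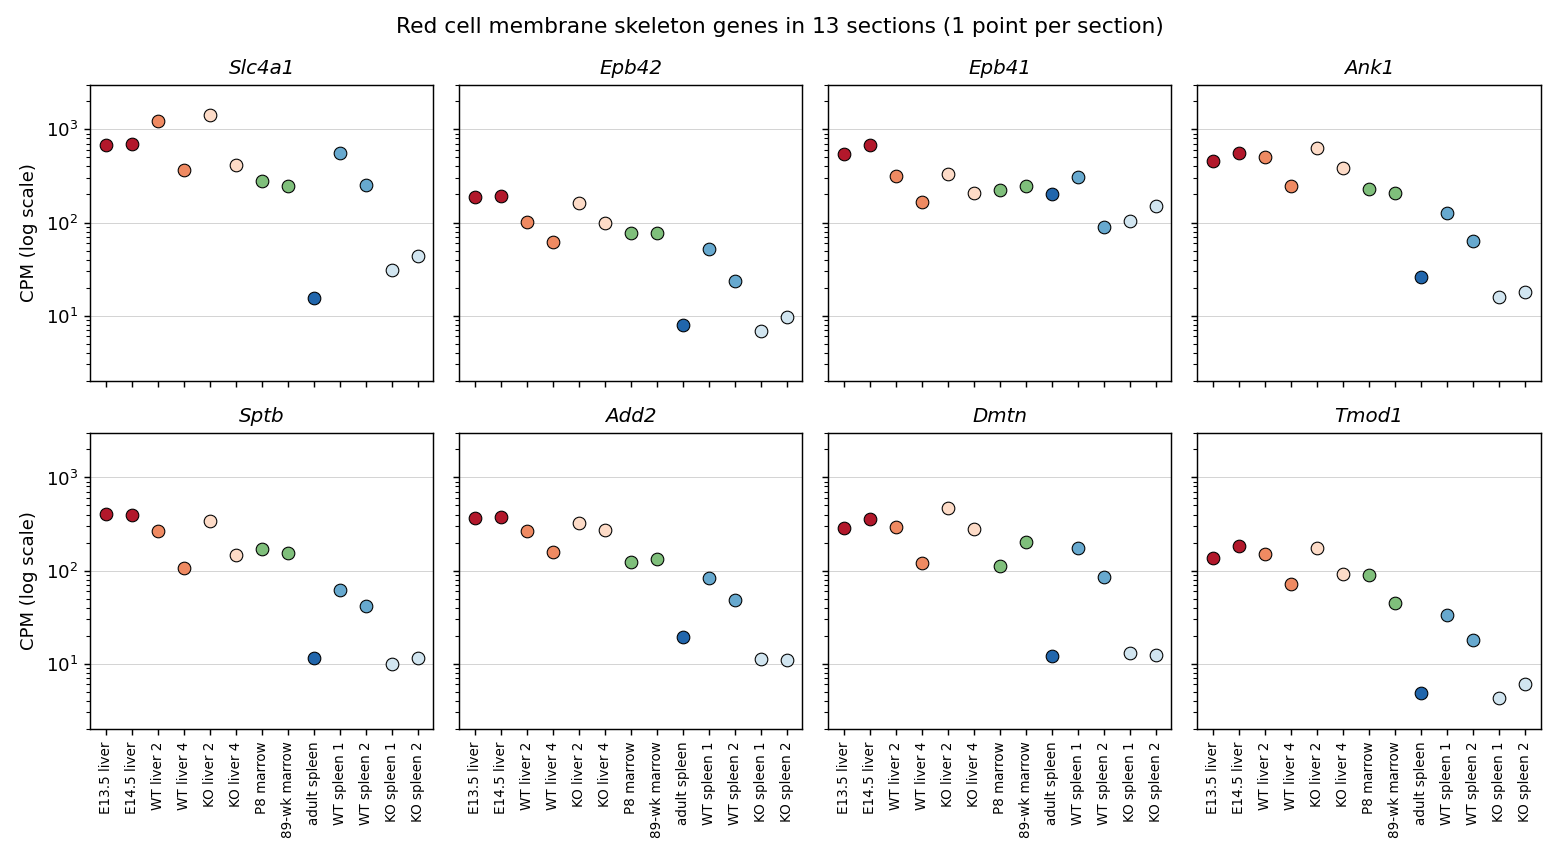
CPM of each of the 8 members (log axis) in each section, 1 point per section for the 13 sections other than the EDTA-decalcified marrow. The E13.5 and E14.5 livers, both marrows and the adult spleen are from purchased mice, and WT and KO mark wild type and knockout of the cross. The members other than Epb41 fall steeply from the purchased E14.5 liver to the purchased spleen, for example Slc4a1 from 700.3 to 15.6 CPM, and Epb41 goes from 678 to 203 CPM.

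The EDTA-decalcified marrow held 61 UMIs of Slc4a1, 23 of Dmtn, 15 of Epb41, 10 of Add2, 9 of Ank1, 5 of Tmod1 and 2 each of Epb42 and Sptb. For Slc4a1 this is 1641 CPM, with an exact Poisson interval of 1255 to 2108 CPM. Counts of 2 to 15 give levels too coarse to rank against the other sections.

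The tissue difference was tested within the cross, where 4 spleens were set against 4 fetal livers with genotype as a covariate (edgeR quasi-likelihood F test, Benjamini-Hochberg adjustment over 19180 genes). All 8 members passed at an adjusted p under 0.05 and all were lower in spleen, where 47.0% of all genes passed in either direction and 25.6% passed as lower in spleen. The median log2 difference of the members was -3.92, against 0.10 over all genes tested. The erythroid list had a median of -3.78 in the same fit, and 11 of its 12 genes passed as lower. On the log2 scale Ank1 differed by -4.33 ± 0.73 (SE), Tmod1 by -4.28 ± 0.69, Sptb by -4.11 ± 0.74 and Add2 by -4.06 ± 0.66. The remaining strongly lower members were Slc4a1 at -3.79 ± 1.00, Dmtn at -3.68 ± 0.94 and Epb42 at -3.40 ± 0.68. These 7 had edgeR adjusted p of 0.00098 (Tmod1) to 0.013 (Slc4a1). These differences are fitted with TMM library factors and are not ratios of the CPM above.

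Epb41 differed least, at -1.57 ± 0.54 with an edgeR adjusted p of 0.037. It was past the threshold with all 8 sections but not with upper-quartile factors (adjusted p 0.0999), not in lymphocyte-poor spleen and hepatocyte-rich liver spots (adjusted p 0.052), and not when wild-type or knockout fetal liver 2, wild-type spleen 2 or either knockout spleen was left out (adjusted p 0.0598 to 0.125 in edgeR).

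Stages were compared between single sections of purchased mice, so no test was possible. From E13.5 to E14.5, 7 of 8 members were higher, with a median log2 ratio of 0.16 and a range from -0.06 for Sptb to 0.41 for Tmod1. The erythroid list had a median of 0.18, and each member's ratio was smaller than its replicate SD in the cross (0.62 for Tmod1). From P8 to 89-week marrow the median was -0.07, while the erythroid list had a median of 0.42 with 10 of 12 genes higher, and per erythroid transcript the median over the members was -0.82. Here Dmtn was higher at 89 weeks by 0.87 and Tmod1 lower by 0.97 on the log2 scale, and the other 6 lay between -0.18 and 0.15. The replicate SD in the cross was 0.64 for Dmtn and 0.62 for Tmod1. It describes a single section of fetal liver or spleen, and a difference between single sections spreads more widely. Without replicate marrow sections, it is not known whether either difference exceeds the spread between sections. The P8 section also pooled other tissue with marrow, as given above.

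From the purchased E14.5 liver to P8 marrow all 8 were lower, with a median log2 ratio of -1.31 and a range of -1.67 to -1.04. The P8 level is pooled over marrow and the bone, cartilage and muscle beside it, and their part in the difference was not tested. From the same liver to the purchased adult spleen the median was -4.74. Slc4a1 was lowest at -5.49 and Epb41 least so at -1.74. Over the same 2 steps the erythroid list had medians of -1.71 and -3.92. The liver and spleen sections also differed in TMM factors, 0.783 for the E14.5 liver and 1.48 for the spleen, and scaled by these the median over the members was -5.65.

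The spleens of the cross gave a lower level of 7 of the 8 members in the C1qa knockout. The mean level of Slc4a1 was 406 ± 216 CPM (SD, n = 2) in the wild type and 37.5 ± 9.28 in the knockout, and that of Dmtn 131 ± 65.0 and 12.7 ± 0.462. Ank1 had means of 94.8 ± 44.3 and 16.9 ± 1.24, Add2 65.5 ± 24.4 and 11.2 ± 0.228, and Sptb 52.0 ± 14.3 and 10.7 ± 1.02. Epb42 stood at 38.1 ± 20.4 in the wild type and 8.24 ± 1.90 in the knockout, and Tmod1 at 25.8 ± 11.1 and 5.16 ± 1.29. For each of these 7 genes both knockout sections lay below both wild-type sections, an ordering that 50.5% of all genes showed in this direction on the CPM scale. In the other direction 0 members and 18.9% of genes did not overlap. Epb41 overlapped between the genotypes, with 197 ± 153 and 128 ± 34.6 CPM.

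In the edgeR fit over 18895 genes, 7 of 8 members passed as lower in the knockout, where 20.6% of all genes passed in either direction and 6.79% as lower. Because Dmtn was known from this contrast when the genes were listed, these values are a description. The log2 fold change of knockout over wild type was -3.16 ± 0.29 (SE) for Slc4a1, -3.12 ± 0.26 for Dmtn, -2.32 ± 0.22 for Add2 and -2.24 ± 0.24 for Ank1. It was -2.08 ± 0.28 for Tmod1, -2.03 ± 0.21 for Sptb and -1.97 ± 0.28 for Epb42. Slc4a1 and Dmtn, which code for band 3 and dematin, thus lay below the other 5 called members, whose values ran from -2.32 to -1.97. Of all genes tested, 0.0212% had a lower fold change than Slc4a1 and 0.0265% than Dmtn, while Epb41, at -0.37 ± 0.34, did not pass and had 34.5% of genes below it. The median over the 8 was -2.16, beside -0.08 over all genes.

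The sign of Epb41 in spleen rested on single sections. Without wild-type spleen 1 it was 0.80 and past the threshold as higher in the knockout, and without wild-type spleen 2 it was -0.99 and past it as lower. The other 7 members passed as lower with any 1 of the 4 spleens left out, in fits where 1 genotype had a single section and the spread between sections came from the other pair alone. With upper-quartile factors, where the median over all genes fell from -0.08 to -0.37 and the called genes turned from 2603 higher and 1283 lower to 1197 higher and 4400 lower, all 8 members passed as lower, Epb41 at -0.68.

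Markers of some other cell types moved with genotype in these spleens. All 12 genes of the erythroid list had negative log2 fold changes, 11 passed as lower, and their median was -1.78. The list summed to 3338 and 1144 CPM (wild-type sections 1 and 2) against 514 and 812 CPM (knockout sections 1 and 2). The 6 neutrophil genes all passed as lower (median -2.89), with sums of 605 and 516 CPM in the wild type and 57.0 and 115 in the knockout. All 5 pancreas genes that could be tested passed as higher (median 5.51), with the sums given above. Of 8 genes of red pulp macrophages 4 passed as higher, where 13.8% of all genes did. Their sums overlapped, at 2015 and 1535 CPM in the wild type and 1485 and 1641 in the knockout. Of 7 B cell genes 2 passed as higher, and of 7 T cell genes 0 passed. Of 6 megakaryocyte genes 2 passed as lower, where 6.79% of all genes did. Spots without much other tissue gave a median of -2.17 over the members and again 7 called lower, and the lymphocyte-poor 50% of spots gave -2.54 and 7. The part of the erythroid and neutrophil contents in the result was not tested.

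The purchased wild-type spleen lay below both wild-type spleens of the cross for 7 of the 8 members. Its levels of Slc4a1 (15.6 CPM) and Dmtn (12.1) were below both knockout spleens, and those of Epb42 (7.85) and Tmod1 (4.90) between them. Ank1 (25.9), Add2 (19.4) and Sptb (11.57) lay above both, the last by less than its counting interval, and Epb41 lay between the wild-type cross spleens. Its erythroid list summed to 543 CPM, but its neutrophil list summed to 774 CPM, above both wild-type cross spleens. Mice, feature tables and software versions differed between the purchased and the cross sections, so a difference between these wild-type spleens cannot be told apart from them.

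**Figure D2:**
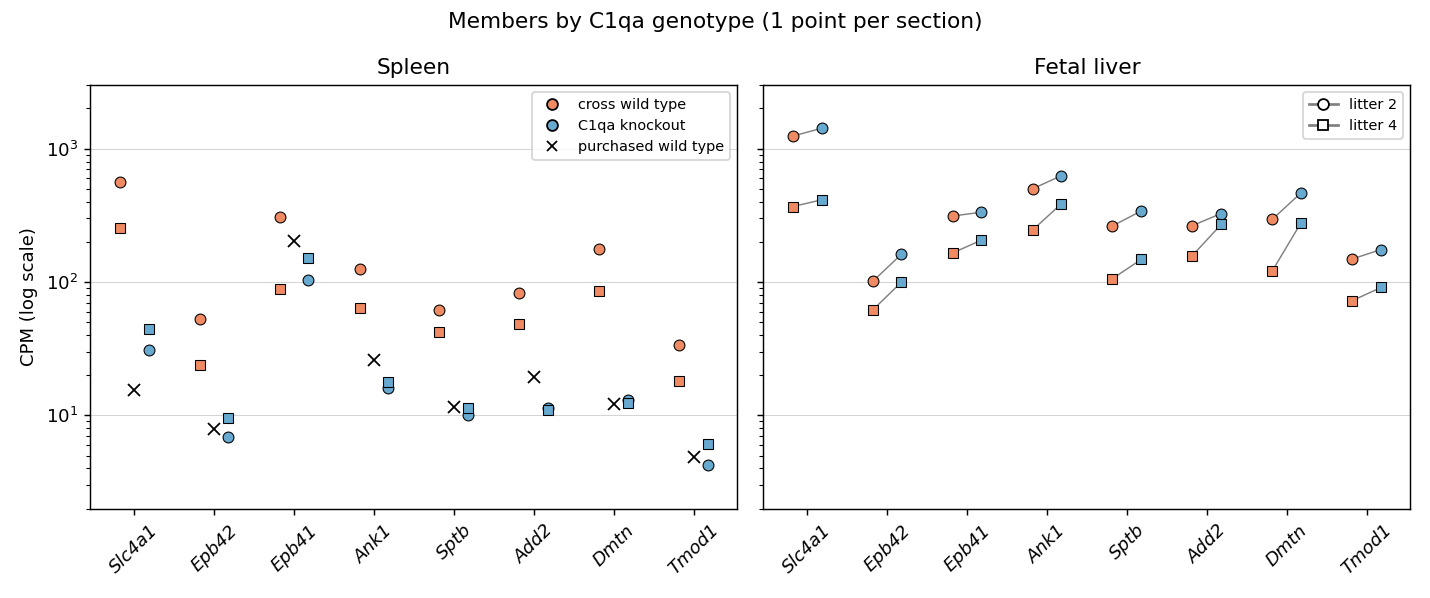
CPM of the 8 members (log axis) in wild-type and C1qa knockout sections of the cross, with fetal liver and spleen in separate panels, 1 point per section (circles and squares are sections 1 and 2 in spleen and litters 2 and 4 in liver, and crosses the purchased spleen). In spleen both knockout points lie below both wild-type points for 7 members (Slc4a1 at 31.0 and 44.1 against 559 and 253 CPM), and in fetal liver the line that joins the genotypes of a litter rises for all 8 members in both litters.

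Levels were next set against erythroid transcripts of the same section, as log2 of a member's UMIs over the summed UMIs of the erythroid list. For Slc4a1 this ratio was -2.58 and -2.18 for wild-type sections 1 and 2, -4.05 and -4.20 for knockout sections 1 and 2, and -5.12 in the purchased spleen. For Dmtn it was -4.24 and -3.75 in the wild type, -5.30 and -6.04 in the knockout and -5.49 in the purchased section. Both genes were thus lower per erythroid transcript in both knockout sections than in either wild-type section. The same order held for Ank1, Add2, Tmod1 and Epb42. Sptb overlapped, at -5.75 and -4.77 in the wild type and -5.68 and -6.15 in the knockout. The share of all genes with this order was not computed on this scale, so the order is not read as particular to the members. On the CPM scale 50.5% of all genes had it. The mean difference was -1.75 for Slc4a1 and -1.67 for Dmtn, against -0.90 for Add2, -0.81 for Ank1, -0.68 for Tmod1, -0.66 for Sptb and -0.52 for Epb42. With 2 sections against 2, no exact permutation test can pass, and none is given.

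Epb41 ran the other way on this scale. Its ratio to the erythroid list was -3.45 and -3.69 for the wild type, -2.32 and -2.42 for the knockout and -1.42 for the purchased spleen, a rise of 1.21 from wild type to knockout. In the 4 cross fetal livers it held between -4.80 and -4.31. From fetal liver to spleen the ratio of Epb41 rose by 1.66, while the other 7 members changed by -0.14 to -0.99. Set against Alas2 alone, the change of Epb41 from fetal liver to spleen was 0.52 and those of the other 7 were -1.28 to -2.13.

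**Figure D3:**
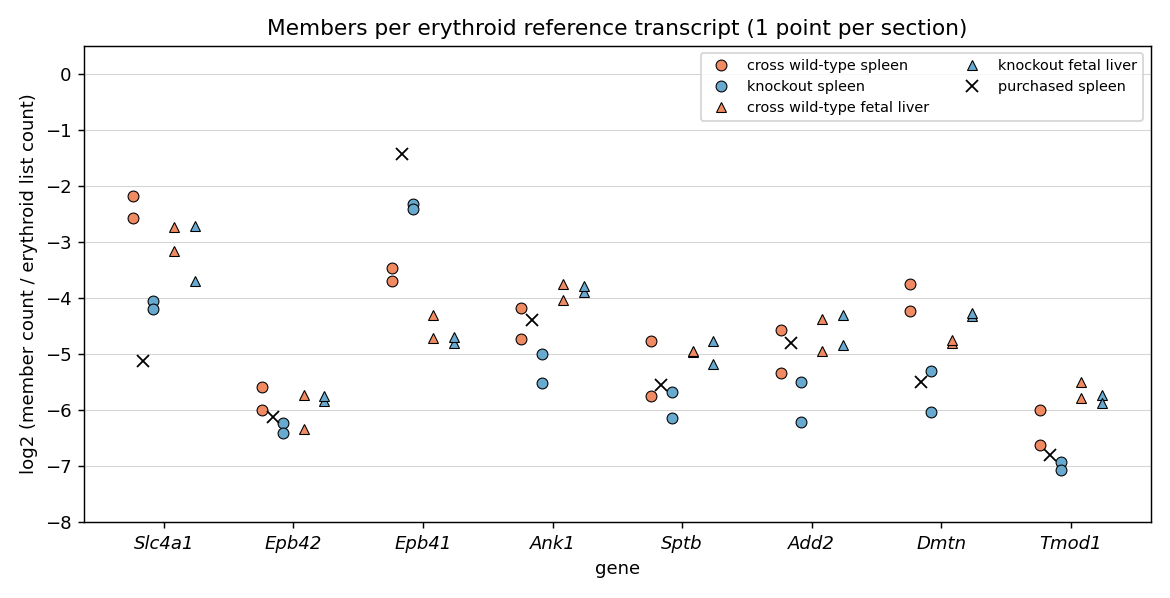
Log2 of the UMIs of each member over the summed UMIs of 12 erythroid genes that hold no member, 1 point per section of the cross (circles for spleen, triangles for fetal liver) and a cross for the purchased spleen. Slc4a1 lies at -2.58 and -2.18 with the wild type and at -4.05 and -4.20 with the knockout in spleen. Epb41 lies at -4.80 to -4.31 in the cross fetal livers and at -3.69 to -2.32 in the cross spleens. In the purchased spleen, which is not matched to the cross livers, it lies at -1.42.

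In fetal liver no member differed between the genotypes in the edgeR test, where 0 of 18986 genes passed, 138 had p under 0.05 before adjustment, and DESeq2 called 12. The percentage of genes called was 0. Mean levels in wild type and knockout were 804 ± 617 and 916 ± 712 CPM (SD, n = 2) for Slc4a1, 208 ± 123 and 373 ± 133 for Dmtn, and 211 ± 75.5 and 298 ± 39.6 for Add2. Over all kept spots the sections numbered 4 were below those numbered 2 in both genotypes, and they also held fewer hepatocyte-rich spots, as given above. Within hepatocyte-rich spots the order was not the same for all members. Wild-type liver 4 against wild-type liver 2 then measured 859 against 1286 CPM for Slc4a1 and 273 against 306 for Dmtn, but 501 against 499.7 for Ank1, 351 against 273 for Add2 and 144 against 105 for Epb42. The log2 fold changes ran from -0.04 ± 0.82 for Epb41 to 0.59 ± 0.90 for Dmtn, with a median of 0.21 beside -0.004 over all genes. The standard errors were 0.74 to 1.21, wider than any of these differences.

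Set against its own litter, the knockout section was higher in CPM for all 8 members in both litters, as were 41.4% of all genes. In the hepatocyte-rich spots of litter 4 alone, 5 of the 8 were lower in the knockout, Slc4a1 (859 CPM in the wild type and 570.05 in the knockout), Sptb (242 and 196), Tmod1 (134.7 and 120.8), Epb42 (144 and 136) and Epb41 (239 and 237). Over all kept spots, Dmtn went from 295 to 467 CPM in litter 2 and from 121 to 279 in litter 4, and Epb42 from 101 to 161 and from 61.7 to 99.7. Slc4a1 went from 1240.3 to 1419 and from 368 to 412. Add2 was the only member whose genotypes did not overlap, with 265 and 158 CPM in the wild type against 326 and 270.1 in the knockout, and 7.56% of all genes had that order. The reverse order held for 0 members and 2.50% of genes.

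With litter as a replicate block, again 0 of 8 members passed, while 0.827% of all genes did (157, of which 152 were lower in the knockout). The largest blocked difference was that of Dmtn, at 0.71 ± 0.31 (edgeR adjusted p 0.55). Those of Epb42, Add2 and Ank1 were 0.47 ± 0.28, 0.32 ± 0.30 and 0.28 ± 0.32, and Slc4a1 stood at -0.04 ± 0.36. Single sections decided the sign: the median over the members was 1.49 without wild-type fetal liver 2, -0.43 without wild-type fetal liver 4, -1.01 without knockout fetal liver 2 and 0.86 without knockout fetal liver 4. In hepatocyte-rich spots alone it was -0.04. Muscle markers summed to 3204 and 1342 CPM in wild-type livers 2 and 4 and to 361 and 123 CPM in knockout livers 2 and 4, so the sections also differed in the tissue beside the liver, whose part was not tested.

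Whether the genotype difference itself differed between spleen and fetal liver depended on the litters. In the fit of all 8 cross sections without a litter term, 0 of 8 members and 0 of 19180 genes passed the interaction test (2018 had p under 0.05 before adjustment, and DESeq2 called 9). With litter as a replicate block for the livers, 7 of 8 members passed, all with a more negative difference in spleen, and 7.35% of all genes passed. The interaction was -3.83 ± 0.41 for Dmtn (edgeR adjusted p 2.6e-05), -3.12 ± 0.48 for Slc4a1 (0.00069) and -2.63 ± 0.36 for Add2 (0.00031). Ank1, Epb42, Sptb and Tmod1 had interactions of -2.50 to -2.13. Epb41 did not pass, at -0.35 ± 0.51. This test contains the spleen values that were known when the genes were listed.

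Within sections, spots were ranked by the share of their UMIs that came from the erythroid list, and the 25% richest were compared with the 25% poorest. Spots of a section are not replicates, so the ratios carry no test. In the E13.5 and the purchased E14.5 liver, where nearly all spots were erythroid, the median log2 ratio over the members was 0.47 and 0.32, and in fetal livers 2 of the cross it was 0.62 in the wild type and 0.47 in the knockout. It reached 4.95 and 4.44 in wild-type and knockout fetal liver 4, and 4.01 in P8 marrow, sections that held large areas of other tissue. Within those 2 livers of litter 4 the members diverged, with ratios of 7.36 and 6.56 for Slc4a1 and of 1.26 and 1.18 for Epb41 in wild type and knockout. In 89-week marrow the median was 1.12. In spleen it was 3.47 and 2.96 in the wild type, 2.02 and 2.63 in the knockout and 2.76 in the purchased section.

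Slc4a1 had the steepest gradient of the members in the 4 cross spleens. Its richest spots held 1499.6 and 871 CPM with the wild type, 111 and 163 with the knockout, and 47.1 with the purchased spleen. Its poorest spots held 61.5 and 22.5, 5.99 and 4.58, and 7.26 CPM in the same order. Spots were ranked within each section, and the erythroid list itself summed to 8319.6 and 3605 CPM in the richest spots of the wild type, 1433 and 2377 in those of the knockout and 1330 in those of the purchased spleen. In the poorest spots it summed to 567 and 0, 75.6 and 121, and 169 CPM. Both kinds of spot thus held less Slc4a1 in the knockout, and the part of their erythroid content was not tested. Dmtn in the richest spots was 476 and 279 CPM in the wild type, 30.0 and 36.0 in the knockout and 34.3 in the purchased section.

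Epb41 had a shallower gradient in every spleen, with log2 ratios of 2.33 and 1.80 in the wild type, 0.97 and 1.87 in the knockout and 0.81 in the purchased section. Its poorest spots still held 123 and 52.2 CPM in the wild type, 86.4 and 88.1 in the knockout and 175 in the purchased spleen, while its richest held 619 and 182, 169.7 and 322, and 307. In the poorest spots the genotypes overlapped. In the 10% of spots richest in B cell markers, Epb41 was lower than in the other spots by a log2 difference of -0.25 in the purchased spleen, -1.30 and -0.77 in the wild type and -0.37 and -0.61 in the knockout. Slc4a1 in those B cell spots differed by -1.90, -2.94 and -2.81, and -1.75 and -2.12. In T cell spots the differences of Epb41 were -0.20, -1.001 and -0.60, and -0.16 and -0.53. In lymphocyte-rich spots Epb41 thus stayed nearer to its level elsewhere in the section than Slc4a1 did.

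**Figure D4:**
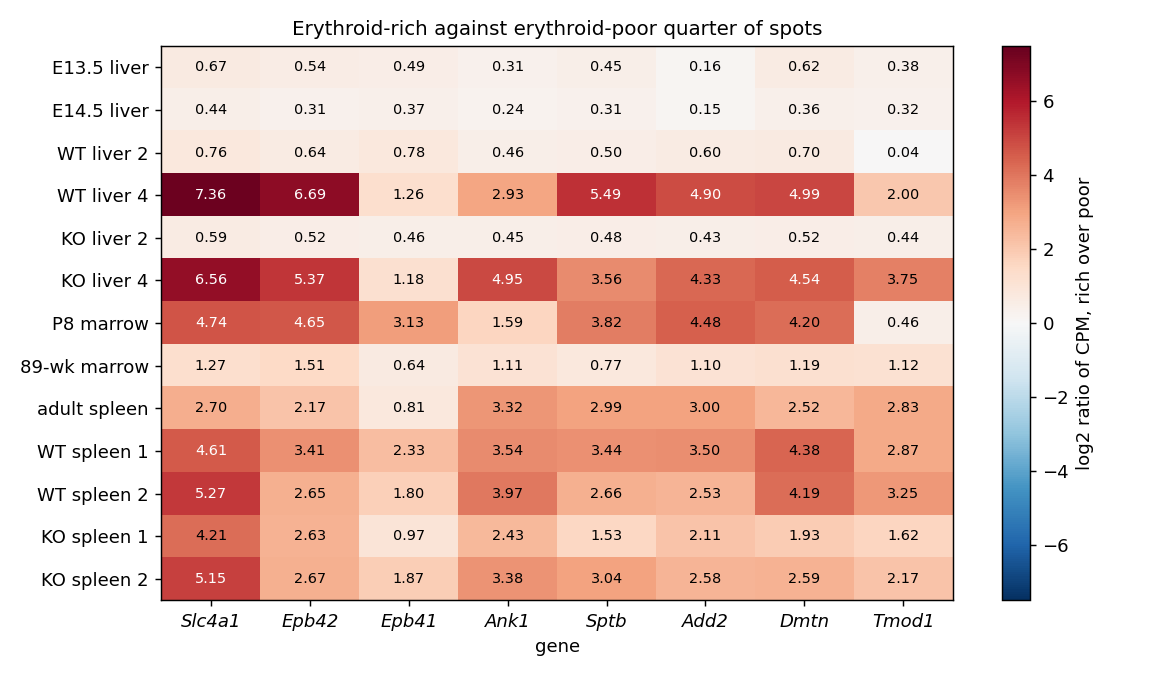
Log2 ratio of the CPM of each member in the 25% of spots richest in erythroid transcripts over the 25% poorest, by section, shown as colour. Slc4a1 reaches 7.36 in wild-type fetal liver 4 and 4.61 and 5.27 in the wild-type spleens, and Epb41 stands lower in every spleen, down to 0.81 in the purchased one.

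Ank1 and Tmod1 departed from the others in the P8 leg section, which contained muscle, cartilage and bone beside marrow. Between its erythroid-poor and erythroid-rich spots, Slc4a1 had a log2 ratio of 4.74, Ank1 of 1.59 and Tmod1 of 0.46, since Tmod1 held 77.0 CPM in the poorest spots and 106 in the richest. In the 108 of 1085 spots richest in skeletal muscle transcripts, Tmod1 measured 378 CPM against 63.4 elsewhere, a log2 difference of 2.58. Ank1 measured 533 against 199 CPM, a difference of 1.42. The other 6 members were lower there. Slc4a1 measured 37.7 against 302 CPM (-3.002), and Sptb, which was lowered least, 89.6 against 177 (-0.98).

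Cartilage and bone spots had no such exception. All 8 members were lower in the 10% of spots richest in cartilage markers, by -2.38 (Epb41) to -4.36 (Add2) on the log2 scale, and in those richest in bone markers, by -1.42 to -2.35. In the 10% of spots richest in neutrophil markers of the same section all 8 were higher, from 0.37 for Tmod1 to 1.32. In the cross livers, the 10% of spots with the most muscle transcripts held 295 CPM of Tmod1 against 138 elsewhere (1.10) in wild-type fetal liver 2. Those of wild-type fetal liver 4 held 103 against 69.7 CPM (0.56). Ank1 differed in these spots by 0.17 and -0.67, beside -5.62 for Slc4a1 in wild-type liver 4. Muscle was rarer than this 10% in some sections. Spots with at least 0.5% of their UMIs from muscle markers numbered 93 (litter 2) and 98 (litter 4) with the wild type, 24 and 1 with the knockout, and 0 in 89-week marrow. Taken by that limit, Tmod1 differed by 2.13 and 0.47 with the wild type and by 0.94 with the knockout of litter 2, and Ank1 by 0.49, -0.72 and -0.77 in the same order. The higher Tmod1 level at P8 than at 89 weeks goes together with this muscle content, which summed to 8106 CPM at P8, and its part in the difference was not tested.

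**Figure D5:**
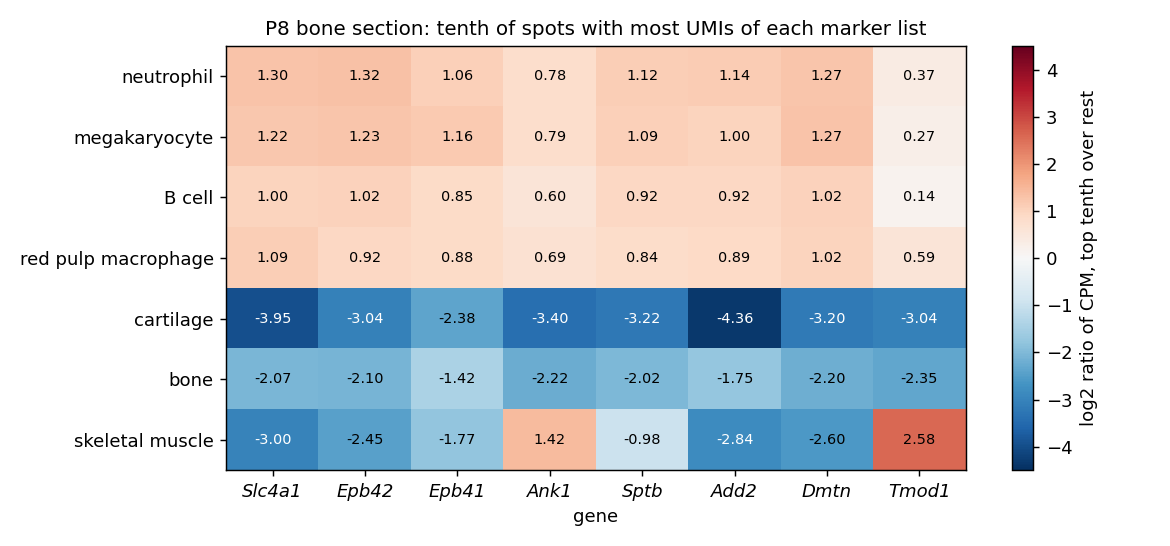
Log2 difference in CPM of each member between the 10% of spots of the P8 leg section richest in a marker list and the remaining spots, by marker list, shown as colour. In muscle-rich spots Tmod1 (2.58) and Ank1 (1.42) are higher while Slc4a1 is at -3.002, and in cartilage spots all 8 members are lower.

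Genes that work with the members were taken from lists of known components. Among other skeleton components, Tmod3, another tropomodulin, passed in the spleen genotype fit as higher in the knockout at 0.51 ± 0.16, while Tpm1, a tropomyosin, stood at -0.37 and did not pass. The call of Tmod3 was lost with upper-quartile factors and with any 1 of wild-type spleen 1, knockout spleen 1 or knockout spleen 2 left out. Of 14 other membrane proteins of the red cell, 9 passed as lower and 2 as higher, with a median of -0.94. Of all genes 6.79% passed as lower and 13.8% as higher, so the count of 2 higher was near the general share. The 3 with the smallest edgeR adjusted p were Ermap at -2.63 ± 0.22, the Rh protein gene Rhd at -3.12 ± 0.26 and the blood group peptidase Kel at -2.84 ± 0.27.

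Relatives of the members that serve other cells were counted in the same way. Of 13 paralogs tested, 0 passed as lower and 2 as higher in the knockout spleens, where 6.79% of all genes passed as lower and 13.8% as higher, so both counts were near the shares of genes in general. The 2 were Ablim1 at 0.86 ± 0.17 and Sptan1, a spectrin of nonerythroid cells, at 0.78 ± 0.17. Epb41l2, a relative of protein 4.1R, stood at 0.41 ± 0.16 and did not pass. Neither Ablim1 nor Sptan1 passed without knockout spleen 2. Between the purchased E14.5 liver and the purchased spleen, the paralogs had a median log2 ratio of 1.91 where the members had -4.74. In this untested pair 9 paralogs were higher in spleen and 4 lower. Sptan1 went from 35.7 to 144.5 CPM, Sptbn1, another spectrin of nonerythroid cells, from 69.3 to 306, Epb41l2 from 29.4 to 173 and Ablim1 from 6.85 to 163. The tested spleens and livers of the cross did not share this direction. There the paralogs had a median of -0.42, and 5 of 13 passed as lower in spleen and 1 as higher. Of all genes 47.0% passed in either direction and 25.6% as lower. In the fetal liver genotype fit without the litter block, 0 genes of these lists passed.

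Outside the list, genes whose level over 13 sections was most like the mean of the members included Slc6a9 (Pearson r = 0.994), a glycine transporter, Kel (0.993), Pheta2 (0.990) and Abcb10 (0.987), a mitochondrial transporter of erythroid cells, among 10308 genes with a mean of at least 10.0 CPM. These coefficients were taken on log2(CPM + 1), and the sections share tissue and erythroid content.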

How the data were processed

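Formalin-fixed paraffin-embedded sections were assayed with the probe-based Visium kit of 10x Genomics, 1 library per section. The authors deposited raw UMI counts per gene and spot, made with Space Ranger on mm10 per the submitters' processing notes, and the file headers name Cell Ranger 4 in 4 sections and Space Ranger 2.1.1, 3.1.2 and 4.0.1 in 1, 1 and 8. The other deposited values are spot barcodes, gene identifiers and positions, and whether a spot lies on tissue. Barcodes name array positions, and 2 sections shared 0 to 1430 of them. Of the 32589 features of the purchased tables, 304 are marked as deprecated.

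In-tissue spots with at least 1000 genes were kept, and their counts were summed per section and divided by the total to give CPM. A count of 0 was taken to allow 3 counts, and no floor was applied to the CPM. Summed counts were tested by quasi-likelihood in edgeR 4.0.16 (TMM, filterByExpr, limma 3.58.1, R 4.3.3), with DESeq2 1.42.0 as an alternative, and called where the Benjamini-Hochberg adjusted p was under 0.05. The scripts were tested on simulated counts. Purchased and cross sections were not tested against each other. Pairs of replicate sections differed beyond counting noise (chi-square per degree of freedom 22.1 or more). Deviations from the genotype means correlated at 0.652 between fetal livers of the same number, which the study names as litters, and at 0.0394 between spleens, whose numbers are only names.

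Genes named were the 8 members, the 3 genes with the smallest adjusted p of each list of partners and paralogs in a genotype fit (in fetal liver all adjusted p were equal, so none is named), the 5 genes most like the mean of the members, and C1qa. A few partners that this rule takes in are not reported here. The levels of Sptbn1 were given in addition, and that gene was chosen after its values were seen. Members and lists were chosen with earlier results of these data known. Alternatives were other library factors, filters, spot selections, blocks and left-out sections.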

Additional observations from a re-analysis of the deposited data

Results flagged for a closer look

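The genotype difference of 7 members differed between spleen and fetal liver by a test of the difference itself, the interaction term with litter as a replicate block, in which 7.35% of all genes passed. Its log2 values (knockout over wild type in spleen minus the same in liver) were -3.83 for Dmtn, -3.12 for Slc4a1, -2.63 for Add2, -2.50 for Ank1, -2.43 for Epb42, -2.23 for Sptb and -2.13 for Tmod1. None of them passed without the litter term, and the test contains spleen values that were known when the genes were listed.

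Member transcripts were also counted on spots outside the tissue of the purchased sections, data that the report does not use. These spots held 71350 member UMIs in the E14.5 fetal liver, 41261 in the E13.5 fetal liver, 12667 in P8 marrow, 11151 in 89-week marrow, 2651 in the adult spleen and 97 in the EDTA-decalcified marrow, each above the 3 counts that a count of 0 allows. Per spot this was 7.64%, 3.82%, 12.3%, 23.1%, 14.8% and 0.283% of the level on kept spots, in the same order. As a share of UMIs, Slc4a1 off the tissue of the purchased spleen was 26.6 CPM, above the 7.26 CPM of its erythroid-poor spots. The part of such counts in the levels of erythroid-poor spots was not tested. Each group held 1 or 2 sections, too few to look for single sections far from their group.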

How the results depend on the processing

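Most values kept their direction and their side of the threshold. Among values that answer a comparison, 126 stayed the same, 23 moved and 1 rose from 0, the count of members called in the interaction with the litter block. A count of called members was taken as the same within a 1.5-fold change. Changes between 7 and 8 called members in the spleen and tissue fits are therefore among the 126. Among values of single genes 493 stayed, 32 changed sign, 20 came past the threshold and 19 fell short of it.

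With the replicate block, 7 members passed the interaction test and 0 passed without it. In spleen, where the numbers are only names, the block gave 7 members called and 4968 genes in place of 3886, and it changed no call of a member in spleen or fetal liver. In fetal liver the block turned Slc4a1 to -0.038, and spots with little other tissue gave Slc4a1 -0.038 too. Hepatocyte-rich spots gave Slc4a1 -0.20, Sptb -0.046, Add2 -0.042, and Tmod1 -0.030. With the block as well these were -0.46, -0.22, -0.077 and -0.15, and Ank1 was -0.045. Upper-quartile factors gave Epb41 0.13 in fetal liver and moved the median over all genes to -0.37 in spleen, 0.22 in fetal liver, 0.50 between tissues and -0.49 in the interaction. The selections of spots with little other tissue, and of hepatocyte-rich spots with the block, were chosen after seeing the data. The causes were not tested.

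Over all genes, the spleen count of 3886 became 2165 after thinning and 240 without knockout replicate 2, and it ranged from 240 to 4972 over the left-out sections. The fetal liver count of 0 became 157 with the block, 12 in DESeq2, 1 in hepatocyte-rich spots, 27 there with the block, 109 without wild-type replicate 2 and 103 without wild-type replicate 4. The interaction count of 0 became 1409 with the block, 9 in DESeq2 and 2 without knockout fetal liver replicate 4. The tissue count of 9019 became 5754 and 5904 without wild-type spleen replicates 1 and 2.

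With 1 section left out, the median over members ran from -2.53 to -1.66 in spleen and from -1.01 to 1.49 in fetal liver. Values of single genes ran, in spleen, from -0.99 to 0.80 for Epb41, and in fetal liver from -1.98 to 1.88 for Slc4a1, -0.60 to 1.51 for Epb42, -1.14 to 1.14 for Epb41, -0.88 to 1.48 for Ank1, -1.29 to 1.70 for Sptb, -0.55 to 1.28 for Add2, -0.54 to 2.05 for Dmtn, and -1.22 to 1.34 for Tmod1. In the interaction Epb41 ran from -1.45 to 0.93.

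The stage medians moved to 0.24 with TMM and -0.058 per erythroid transcript between E13.5 and E14.5, to -0.82 per erythroid transcript between P8 and 89 weeks, and to -5.65 with TMM and -0.71 per erythroid transcript between the purchased liver and spleen. The richest and poorest 10% of spots gave medians of 0.49 and 0.82 at E14.5 and E13.5, 4.59 at P8, 1.78 at 89 weeks, 3.36 in the purchased spleen, 1.64 and 5.48 in wild-type fetal livers 2 and 4, 1.10 in knockout fetal liver 2, 4.08 in wild-type spleen 1, and 3.14 and 3.81 in the knockout spleens. Spots thinned to 2000 UMIs gave 2.00 in the purchased spleen and 4.64 in wild-type fetal liver 4, and ranking by globins gave 3.69 in wild-type spleen 2. Against Alas2 alone the median from liver to spleen was -1.61. The P8 section had 0 spots without other tissue, so that selection gave no value there. Depth limits the EDTA section, with 37167 UMIs.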
